A study of Mus musculus with 8 samples.

Results

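Lineage markers of beige and classical brown adipocytes were followed in cultured mouse fat cells, as a set of 10 genes: Tmem26, Tnfrsf9, Tbx1, Tbx15, Cited1, P2rx5, Slc36a2, Shox2, Eva1a and Zic1. They were chosen by name, and every array probe set annotated to 1 of them alone was taken. Of the 10 genes, 8 had such a probe set, out of 12393 genes represented on the array in this way, and these 8 genes had 11 probe sets between them. Tmem26 and Slc36a2 had no probe set in the annotation used and were not analysed here.

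The cells were adipocytes differentiated in culture from stromal-vascular cells of the inguinal white fat of male C57BL/6J mice, an under-skin depot. There were 4 groups: sh-PRDM16 cells with 1 µM rosiglitazone, sh-PRDM16 cells with no agent, sh-scr cells with 1 µM rosiglitazone, and sh-scr cells with no agent. All cells carried a short hairpin RNA, directed at the transcriptional co-regulator PRDM16 or scrambled, and rosiglitazone is a drug that activates the fat cell nuclear receptor PPARγ. Each group had 2 arrays, labelled biological replicates without a statement that they came from separate mice or cultures, so the p-values measure the spread between these arrays, and their number limits the precision. Prdm16 itself had no probe set in the annotation and was not analysed here, so the knockdown rests on the labels.

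Brown fat cells burn fuel to make heat. Classical brown adipocytes of the fixed depots descend from cells related to the muscle lineage, while beige adipocytes appear within white fat on cold exposure or PPARγ activation. Tmem26, Tnfrsf9 and Tbx1 are known as markers of the beige lineage and Cited1 as a further beige candidate. Zic1 is a marker of classical brown cells, P2rx5 and Slc36a2 are surface proteins enriched in brown and beige cells, and Tbx15 and Shox2 are developmental transcription factors whose levels differ between fat depots. The brown marker known as Eva1, epithelial V-like antigen, carries the symbol Mpzl2 in the RefSeq gene table, which lists Eva1 among its synonyms. Eva1a, the gene named in the list, is a different gene that encodes a membrane protein linked to autophagy.

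Near the floor of the arrays stood 4 of the 11 probe sets, that of Zic1 and the 3 of Tnfrsf9. A value was called at the floor when it lay below the lower quartile of all probe sets on its array, which ranged from 15.7 to 20.5 intensity units, and dim when it lay between that quartile and the array's median, which ranged from 100.7 to 135.65. Zic1 was at the floor on 5 arrays and dim on 3. The Tnfrsf9 probe sets were at the floor on 8 arrays (1421481_at), on 6 (1428034_a_at) and on 5 (1460469_at), and dim on the others. Cited1 was at the floor on 3 arrays, all untreated, and dim on 5. Tbx1, P2rx5 and the Tbx15 probe set 1422195_s_at were dim on all 8 arrays. Eva1a was above the median on the 4 sh-PRDM16 arrays and dim on the 4 sh-scr arrays, Shox2 was above the median on 6 arrays and dim on 2, and the Tbx15 probe set 1418755_at was above the median on all 8. No detection calls were used, so a value at the floor does not show that the gene is silent.

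**Figure D1:**
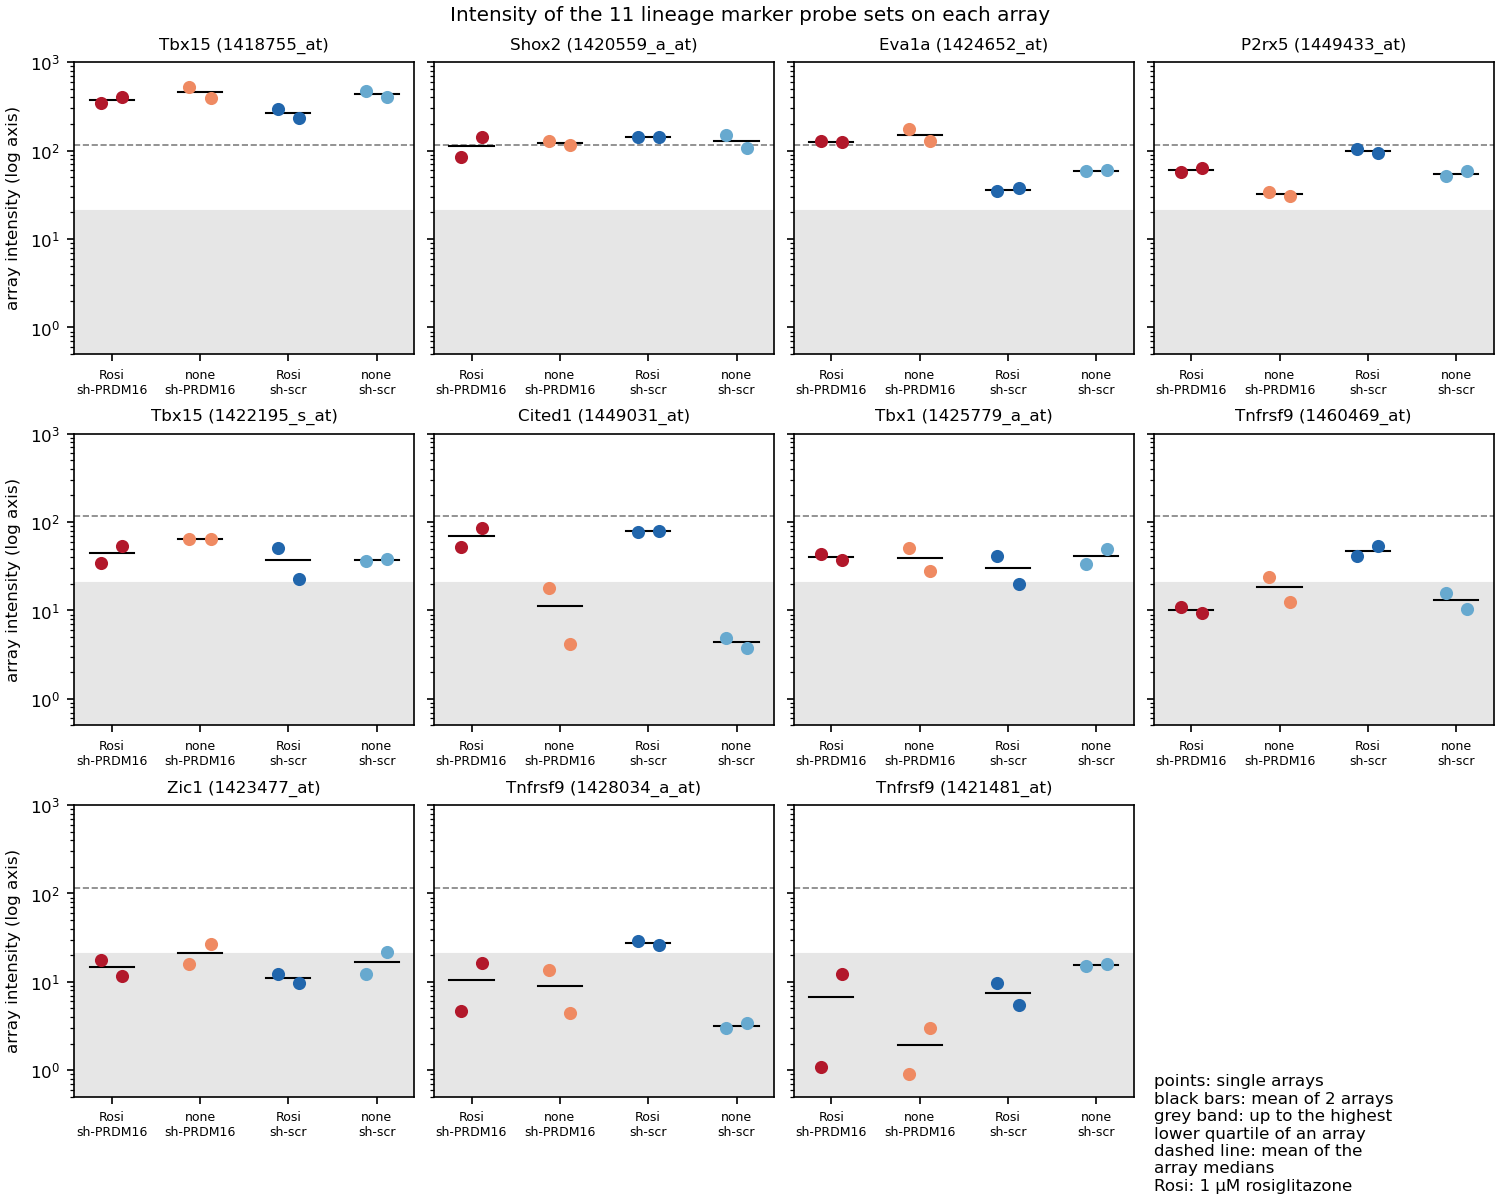
Array intensity (log axis) of each of the 11 lineage marker probe sets in treated and untreated sh-PRDM16 cells and in treated and untreated sh-scr cells, with 1 point per array, a bar at the mean of the 2 arrays, a grey band up to the highest lower quartile of any array (20.5) and a dashed line at the mean of the array medians. The Tbx15 probe set 1418755_at lies above the dashed line in every group, while Zic1 and the Tnfrsf9 probe set 1421481_at lie in or just above the grey band throughout.

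Changes were tested with limma on log2(intensity + 16), which understates the change of dim genes, over 15285 probe sets that remained after the lowest 25% by mean intensity were left out. The limit was a mean of 19.72. Of the 11 lineage marker probe sets, 8 from 7 genes passed it, and the Zic1 probe set and the Tnfrsf9 probe sets 1428034_a_at and 1421481_at did not. Cited1 and the Tnfrsf9 probe set 1460469_at had group means under that limit in some groups and passed through the groups where they were high, so the number of probe sets that passed is not a result. The arrays were compared on the deposited scale. On that scale the median change of all tested probe sets was 0.00 for rosiglitazone in sh-PRDM16 cells and -0.30 in sh-scr cells. It was 0.15 for sh-PRDM16 against sh-scr with rosiglitazone and -0.16 without. For the difference of the drug responses, sh-PRDM16 minus sh-scr, it was 0.32. Changes relative to these medians are given where the shift bears on a call.

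Rosiglitazone raised Cited1 and P2rx5 in both sh-PRDM16 and sh-scr cells, and raised Tnfrsf9 in sh-scr cells. Tbx15 and Eva1a fell in sh-scr cells on the deposited scale. In sh-PRDM16 cells 2 of the 8 probe sets passed, both rises, where 9.77% of all 15285 probe sets were called (7.50% as rises and 2.26% as falls). In sh-scr cells 5 of the 8 passed, 3 rises and 2 falls, where 29.4% of all probe sets were called (4.0% as rises and 25.4% as falls). That split moved with the scale, from 612 rises and 3879 falls on the deposited scale to 1851 rises and 1316 falls on median-centred arrays and 1727 rises and 1714 falls on quantile-normalized arrays. Among the rises, Cited1 and Tnfrsf9 passed the filter only through treated groups. The counts of rises among the 8 probe sets are therefore not a result against the share over all. The median change of the 8 probe sets was -0.18 in sh-PRDM16 cells, against a median of 0.00 over all, and 0.04 in sh-scr cells, against -0.30 over all. These medians include Cited1 and Tnfrsf9, so they are not a result against the medians over all either.

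Cited1, a transcriptional co-regulator without DNA binding of its own, showed the largest rise among the tested lineage markers in both cell populations. Its intensity was 52.8 and 85.8 in treated sh-PRDM16 cells, against 18.1 and 4.2 in untreated sh-PRDM16 cells. It was 77.5 and 79.3 in treated sh-scr cells, against 4.9 and 3.8 in untreated sh-scr cells. Every treated array lay above every untreated array, and the lowest treated value was dim while 3 of the 4 untreated values were at the floor. Within a population, 25.8% of all tested probe sets lay wholly higher with the drug in sh-PRDM16 cells and 12.01% in sh-scr cells. The log2 change with rosiglitazone was 1.67 ± 0.26 in sh-PRDM16 cells (SE, limma, adjusted p = 0.00459) and 2.21 ± 0.26 in sh-scr cells (adjusted p = 0.00155), or 2.51 relative to the median probe set in sh-scr cells. With untreated values so low the size depends on the pseudocount: with 1 in place of 16 the changes were 2.78 in sh-PRDM16 and 3.90 in sh-scr cells, and with 64 they were 0.82 and 1.06. Both calls held under all 17 alternatives that left Cited1 among the tested probe sets. The difference between the responses, sh-PRDM16 minus sh-scr, was -0.54, with a 95% interval from -1.37 to 0.29 and an adjusted p of 0.352. On median-centred arrays it was -0.85 (interval -1.60 to -0.10, adjusted p = 0.359). On quantile-normalized arrays it was -0.70 (interval -1.56 to 0.17, adjusted p = 0.489). Between the cell populations Cited1 differed by -0.17 with rosiglitazone (interval -0.76 to 0.41, adjusted p = 0.676) and by 0.37 without (interval -0.22 to 0.95, adjusted p = 0.397), so neither passed.

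The start regions of Cited1 and Tnfrsf9, the beige markers that rose with the drug in sh-scr cells, are shown because PPARγ, the target of rosiglitazone, binds with its partner RXR to repeats of the motif AGGTCA. The windows run from 250 bases before to 50 bases after a transcript start in RefSeq (GRCm38.p6), printed 5′ to 3′ on the gene's strand, with matches in capitals. RefSeq gives Cited1 3 such windows on the minus strand, of which window 1 (chrX:102252132-102252431) holds TATAAA beginning 13 bases before the start, window 2 (not printed) holds it beginning 115 bases before its start and window 3 (chrX:102250727-102251026) holds AGGTCA in reverse, written TGACCT, beginning 217 bases before it. Tnfrsf9 has 2 windows on the plus strand, and window 2 (chr4:150927749-150928048) holds TGACCT just after the start. Window 1 of Tnfrsf9 (not printed) holds neither AGGTCA on either strand nor TATAAA.
Cited1 window 1: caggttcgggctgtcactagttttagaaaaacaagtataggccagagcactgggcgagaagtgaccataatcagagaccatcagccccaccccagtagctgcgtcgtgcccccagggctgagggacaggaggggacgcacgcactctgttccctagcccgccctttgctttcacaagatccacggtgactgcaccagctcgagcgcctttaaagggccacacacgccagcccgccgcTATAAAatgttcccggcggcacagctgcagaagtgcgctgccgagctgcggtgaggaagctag
Cited1 window 3: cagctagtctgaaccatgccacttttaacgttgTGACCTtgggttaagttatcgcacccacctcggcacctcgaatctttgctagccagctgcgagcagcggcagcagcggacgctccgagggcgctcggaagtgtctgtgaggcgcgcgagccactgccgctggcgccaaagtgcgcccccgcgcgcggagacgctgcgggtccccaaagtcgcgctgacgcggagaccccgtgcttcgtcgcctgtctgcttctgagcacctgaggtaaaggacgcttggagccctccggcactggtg
Tnfrsf9 window 2: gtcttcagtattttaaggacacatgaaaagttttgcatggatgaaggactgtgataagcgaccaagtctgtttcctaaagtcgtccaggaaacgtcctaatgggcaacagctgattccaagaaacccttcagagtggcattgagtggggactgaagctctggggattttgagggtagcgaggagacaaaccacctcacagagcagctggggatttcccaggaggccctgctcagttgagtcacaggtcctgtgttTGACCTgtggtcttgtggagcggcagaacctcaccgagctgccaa
AGGTCA was searched on both strands and TATAAA on the gene's strand. The direct repeat of AGGTCA with 1 base between its copies, which overlaps with AGGTCA, was in none of the windows of the 7 lineage marker genes that have one. Of all 32851 windows in the table, 16.3% held AGGTCA, 0.0396% the direct repeat and 8.32% TATAAA. These are matches of letters, and no binding was measured.

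P2rx5, an ATP-gated ion channel of the cell surface, rose with rosiglitazone and was lower in sh-PRDM16 than in sh-scr cells. Its intensity was 57.1 and 63.3 in treated sh-PRDM16 cells, against 34.4 and 30.4 in untreated sh-PRDM16 cells. It was 104.3 and 94 in treated sh-scr cells, against 51.3 and 58.8 in untreated sh-scr cells. No treated array overlapped the untreated arrays of the same hairpin, and the treated sh-PRDM16 arrays overlapped in level with the untreated sh-scr arrays. Of all tested probe sets, 25.8% likewise lay wholly higher with the drug in sh-PRDM16 cells and 12.01% in sh-scr cells. The drug raised P2rx5 by log2 0.65 ± 0.14 in sh-PRDM16 cells (SE, limma, adjusted p = 0.0181) and by 0.70 ± 0.14 in sh-scr cells (adjusted p = 0.0109). The difference between the responses, sh-PRDM16 minus sh-scr, was -0.04, with an interval from -0.48 to 0.39 (adjusted p = 0.889). That value depends on the scale. On median-centred arrays it was -0.35 (interval -0.60 to -0.11, adjusted p = 0.272). On quantile-normalized arrays it was -0.36 (interval -0.59 to -0.13, adjusted p = 0.238). Neither passed. The call in sh-scr cells was lost without replicate 1 of untreated sh-scr (adjusted p = 0.0719). The call in sh-PRDM16 cells was lost without replicate 2 of untreated sh-PRDM16 (0.0733) and without replicate 1 (0.0598) or replicate 2 (0.116) of treated sh-PRDM16. With a pseudocount of 64 the change in sh-PRDM16 cells was 0.37 (adjusted p = 0.0545) and in sh-scr cells 0.45, still called. The call in sh-PRDM16 cells was also lost with a trended variance prior (0.0623).

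Tnfrsf9, which encodes the co-stimulatory receptor CD137 of the TNF receptor family, was raised by rosiglitazone in sh-scr cells. Its probe set 1460469_at gave 11 and 9.3 in treated sh-PRDM16 cells, against 24.2 and 12.6 in untreated sh-PRDM16 cells. It gave 41.4 and 53 in treated sh-scr cells, against 15.7 and 10.4 in untreated sh-scr cells. The 2 treated sh-scr arrays were the highest of the 8, and both treated sh-PRDM16 arrays were at the floor. The log2 change with the drug was -0.38 ± 0.19 in sh-PRDM16 cells, which did not pass (SE, limma, interval -0.81 to 0.06, adjusted p = 0.278). In sh-scr cells it was 1.12 ± 0.19, which passed (adjusted p = 0.00741), or 1.42 relative to the median probe set. This rise held under all 17 alternatives that left the probe set among those tested, and ranged from 0.53 with a pseudocount of 64 to 1.79 with a pseudocount of 1.

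The 2 Tnfrsf9 probe sets below the filter differed from each other. Probe set 1428034_a_at gave 4.7 and 16.2 in treated and 13.5 and 4.4 in untreated sh-PRDM16 cells, and 28.8 and 25.8 in treated against 3 and 3.4 in untreated sh-scr cells. Its treated sh-scr arrays were again the highest of the 8. In a fit with no filter it changed by 1.17 in sh-scr cells (limma, adjusted p = 0.0292) and by -0.75 between treated sh-PRDM16 and treated sh-scr cells, which did not pass (0.134). Probe set 1421481_at gave 1.1 and 12.4 in treated and 0.9 and 3 in untreated sh-PRDM16 cells, and 9.6 and 5.5 in treated against 15.3 and 15.9 in untreated sh-scr cells. All of these were at the floor, and its change in sh-scr cells was -0.43 without a filter (adjusted p = 0.246), so it did not share the direction of the other probe sets.

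Tbx15 and Eva1a fell with rosiglitazone in sh-scr cells on the deposited scale and passed on neither of the other scales. The Tbx15 probe set 1418755_at gave 350.5 and 404.1 in treated and 528.7 and 392.5 in untreated sh-PRDM16 cells, which overlapped. It gave 297.2 and 232.2 in treated sh-scr cells, against 468.9 and 407.7 in untreated sh-scr cells. These did not overlap, but 62.1% of all tested probe sets likewise lay wholly lower in treated sh-scr cells. The log2 change of this Tbx15 probe set was -0.27 ± 0.19 in sh-PRDM16 cells (SE, limma, interval -0.69 to 0.16, adjusted p = 0.450). In sh-scr cells it was -0.70 ± 0.19 (adjusted p = 0.0274), but -0.40 relative to the median probe set. Eva1a changed by -0.23 ± 0.16 in sh-PRDM16 cells (interval -0.58 to 0.12, adjusted p = 0.426) and by -0.53 ± 0.16 in sh-scr cells (adjusted p = 0.0359), or -0.23 relative to the median. With each array centred on its median, the changes in sh-scr cells were -0.41 for Tbx15 (adjusted p = 0.0923) and -0.23 for Eva1a (adjusted p = 0.188), and with quantile-normalized arrays they were -0.40 (0.0788) and -0.33 (0.0738), so neither call held. With no filter both calls were lost on the deposited scale too (0.0512 for Tbx15 and 0.0582 for Eva1a), and Eva1a was lost with a pseudocount of 64 (-0.30, adjusted p = 0.0765) and with a replicate block (0.0507). The Tbx15 call was also lost without replicate 1 (0.119) or 2 (0.0734) of untreated sh-scr and without replicate 2 of treated sh-scr (0.158). The Eva1a call was lost without any 1 of the 4 sh-scr arrays or the 2 treated sh-PRDM16 arrays (adjusted p between 0.0508 and 0.142).

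**Figure D2:**
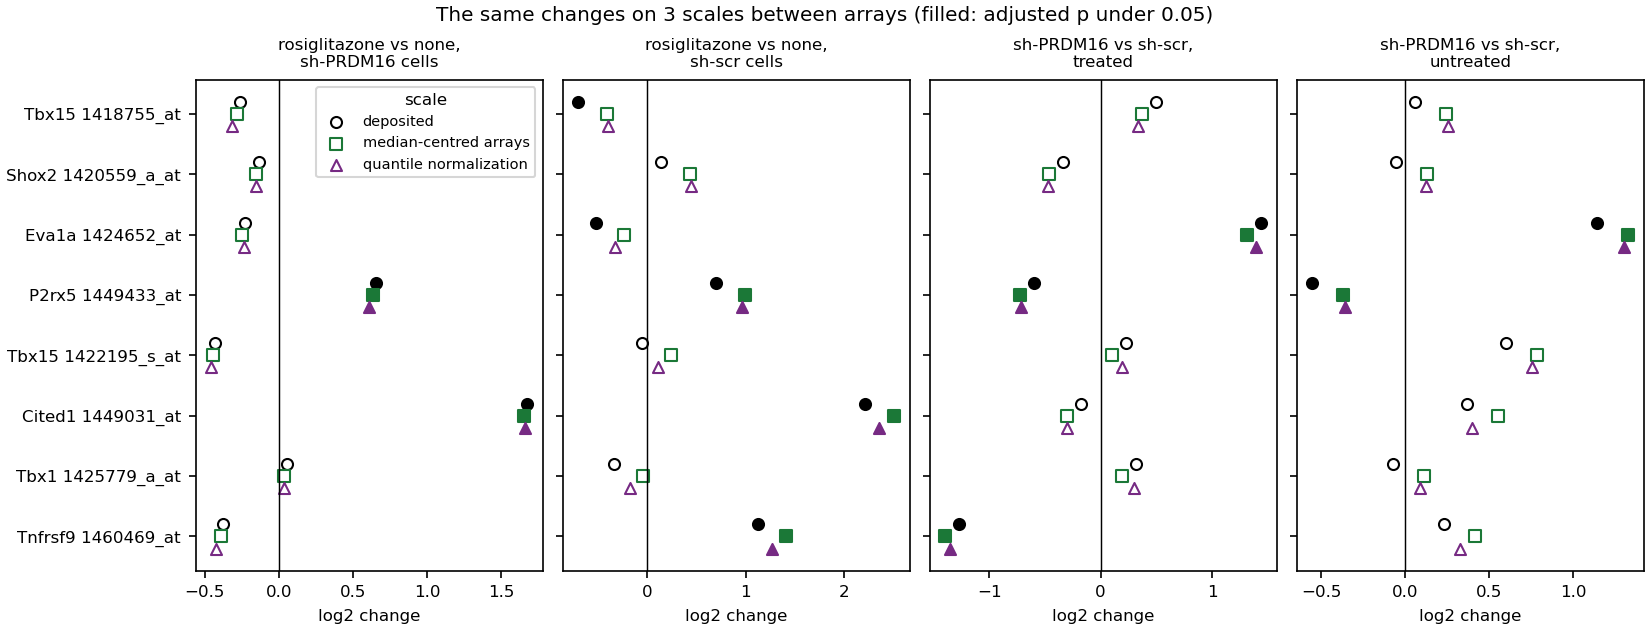
Log2 change of the 8 tested probe sets in 4 comparisons on the deposited scale (circles), with arrays centred on their medians (squares) and with quantile normalization (triangles), filled where the adjusted p was under 0.05. In the panel for rosiglitazone in sh-scr cells the filled circles of Tbx15 and Eva1a stand beside open squares and triangles, while Cited1, P2rx5 and Tnfrsf9 are filled on all 3 scales.

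The remaining lineage markers did not pass in any of the 5 contrasts. Shox2, a homeobox transcription factor, gave 84 and 141.7 in treated and 127.2 and 117.3 in untreated sh-PRDM16 cells, and 143.2 and 141.8 in treated against 151.6 and 107.1 in untreated sh-scr cells. Tbx1, a T-box transcription factor, gave 43.9 and 36.9 in treated and 50.7 and 28.1 in untreated sh-PRDM16 cells, and 40.8 and 20 in treated against 33.4 and 50.1 in untreated sh-scr cells. In both genes the treated and untreated arrays overlapped within each hairpin. Shox2 changed by -0.14 in sh-PRDM16 cells (interval -0.65 to 0.38) and by 0.14 in sh-scr cells (interval -0.37 to 0.66), and Tbx1 by 0.05 (interval -0.56 to 0.66) and -0.34 (interval -0.95 to 0.27) in the same order, so every interval spanned 0. Zic1, a zinc finger transcription factor, gave 17.8 and 11.6 in treated and 16.1 and 26.8 in untreated sh-PRDM16 cells, and 12.3 and 9.6 in treated against 12.3 and 21.5 in untreated sh-scr cells. In the fit with no filter, Zic1 changed by -0.28 with the drug in each population (limma, adjusted p = 0.551 in sh-PRDM16 and 0.392 in sh-scr cells). The second Tbx15 probe set, 1422195_s_at, whose suffix marks probes that can match several transcripts, gave 34.7 and 54.1 in treated and 64 and 64.6 in untreated sh-PRDM16 cells, and 51 and 22.6 in treated against 35.8 and 38 in untreated sh-scr cells. It changed by -0.43 in sh-PRDM16 cells (adjusted p = 0.350) and by -0.06 in sh-scr cells (0.873), where the other Tbx15 probe set was called. Between sh-PRDM16 and sh-scr cells Shox2 differed by -0.34 with rosiglitazone (limma, adjusted p = 0.344) and by -0.06 without (0.905), and Tbx1 by 0.32 with it (0.451) and by -0.08 without (0.891). On median-centred arrays the differences of Shox2 and Tbx1 without rosiglitazone turned positive, and they did not pass there either.

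**Figure D3:**
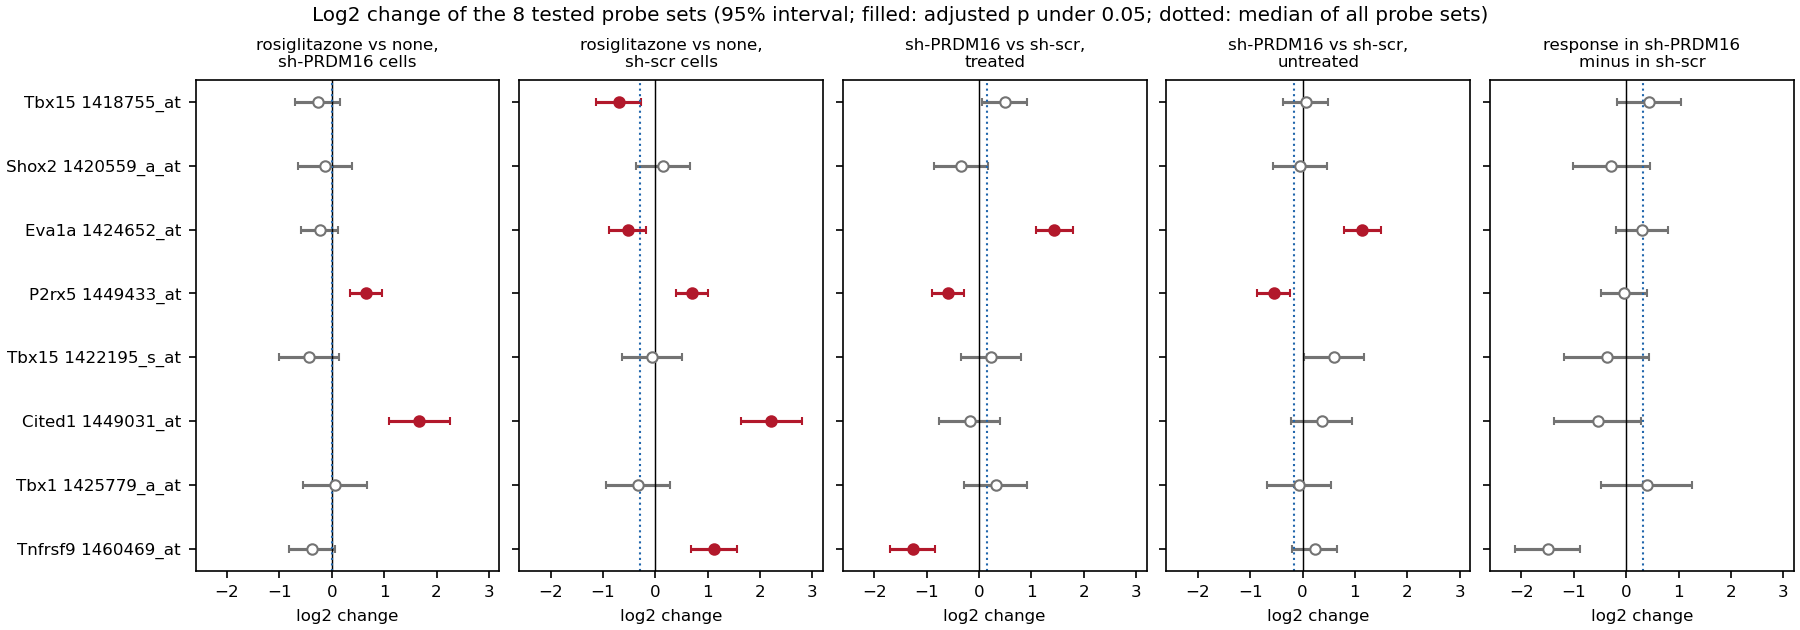
Log2 change of the 8 tested probe sets in the 5 contrasts, with 95% intervals from limma, filled where the adjusted p was under 0.05, and a dotted line at the median of all tested probe sets. Eva1a is to the right of the dotted line in both comparisons of sh-PRDM16 with sh-scr, P2rx5 to the left, and Tnfrsf9 is to the left only with rosiglitazone.

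Between sh-PRDM16 and sh-scr cells the clearest difference among the listed genes was in Eva1a. It was higher in sh-PRDM16 cells whether or not the drug was present. Eva1a is a different gene from the brown marker Eva1 (Mpzl2), so its level is not read as that of a brown marker. P2rx5 was lower in sh-PRDM16 cells under both conditions, and Tnfrsf9 was lower with rosiglitazone. With rosiglitazone 3 of the 8 probe sets passed, 1 rise and 2 falls, where 10.4% of all probe sets were called (6.93% as rises and 3.42% as falls), or 1060 rises and 522 falls, against 1407 rises and 1502 falls on median-centred arrays. Without it 2 of the 8 passed, 1 rise and 1 fall, where 12.2% were called (1.25% as rises and 10.9% as falls), or 191 rises and 1672 falls, against 1003 rises and 1447 falls on median-centred arrays. The median change of the 8 probe sets was 0.03 with the drug, against 0.15 over all probe sets, and 0.14 without it, against -0.16 over all. Tnfrsf9 passed the filter only through treated sh-scr cells, so the count of 2 falls with the drug is not a result against the share over all. The medians of the 8 probe sets include Tnfrsf9 and Cited1, and are not a result against those over all either.

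Eva1a gave 127.5 and 124.4 in treated sh-PRDM16 cells, against 35.2 and 37.5 in treated sh-scr cells. It gave 175.1 and 128.8 in untreated sh-PRDM16 cells, against 59.1 and 59.7 in untreated sh-scr cells. All 4 sh-PRDM16 arrays lay above all 4 sh-scr arrays, with the lowest at 124.4 and the highest sh-scr array at 59.7. Within 1 condition, 44.9% of all tested probe sets lay wholly higher in sh-PRDM16 cells with rosiglitazone and 10.8% without. The log2 difference of Eva1a was 1.44 ± 0.16 with rosiglitazone (SE, limma, adjusted p = 0.00163) and 1.14 ± 0.16 without (adjusted p = 0.00267). Both calls held under all 17 alternatives that left Eva1a among the tested probe sets, with values down to 0.92 and 0.80 at a pseudocount of 64. The response to rosiglitazone differed between the populations by 0.30, with an interval from -0.20 to 0.80 (adjusted p = 0.384). On median-centred arrays that difference was -0.01.

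On the deposited scale P2rx5 was lower in sh-PRDM16 cells by similar amounts under both conditions. The log2 difference was -0.60 ± 0.14 with rosiglitazone (SE, limma, adjusted p = 0.0311), or -0.75 relative to the median probe set. Without rosiglitazone it was -0.55 ± 0.14 (adjusted p = 0.0316), or -0.40 relative to the median. On median-centred arrays the difference was larger with rosiglitazone (-0.72) than without (-0.37), as on quantile-normalized arrays (-0.72 and -0.36). Both calls stood close to the threshold on the deposited scale. With rosiglitazone the call was lost without replicate 1 (adjusted p = 0.120) or 2 (0.104) of treated sh-scr, without replicate 1 (0.129) or 2 (0.0972) of treated sh-PRDM16, and without either untreated sh-scr array (0.0505 each). It was also lost with no filter (0.0535), with a trended variance prior (0.0790), with a replicate block (0.0514) and in a fit of only the 4 treated arrays (0.0524). Without rosiglitazone it was lost without replicate 1 (0.0880) or 2 (0.229) of untreated sh-scr and without replicate 2 of untreated sh-PRDM16 (0.121), and at a pseudocount of 64, where the difference was -0.30 (0.106). It was also lost with a trended variance prior (0.117), with a replicate block (0.0577), in a fit of only the 4 untreated arrays (0.0598) and, just above the threshold, with no filter (0.05004). At a pseudocount of 64 the difference with rosiglitazone was -0.39 (0.0316).

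The Tnfrsf9 probe set 1460469_at differed by -1.27 ± 0.19 between treated sh-PRDM16 and treated sh-scr cells (SE, limma, adjusted p = 0.00680), or -1.42 relative to the median probe set. This call held under the same 17 alternatives, with values from -2.11 at a pseudocount of 1 to -0.58 at 64. Without rosiglitazone the difference was 0.23 (interval -0.21 to 0.67, adjusted p = 0.489). The Tbx15 probe set 1418755_at differed by 0.49 with rosiglitazone (interval 0.07 to 0.92) and did not pass (adjusted p = 0.121), although it passed with the lower 50% of probe sets left out (0.0170), with a pseudocount of 64 (0.0334) and with a trended variance prior (0.0205). The other Tbx15 probe set differed by 0.60 without rosiglitazone (interval 0.03 to 1.18) and did not pass either (0.161). It passed in a fit of only the 4 untreated arrays (0.0382).

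In bulk RNA a lower level can come from fewer cells of a type or from less RNA per cell, and these cannot be told apart. Levels summed over 7 adipocyte marker genes, by the brightest probe set of each, ranged from 62870.5 to 67515 in treated sh-PRDM16 cells, from 46118.7 to 53086.2 in untreated sh-PRDM16 cells, from 67860.4 to 72102 in treated sh-scr cells and from 71608.3 to 71980 in untreated sh-scr cells. Of their 13 probe sets, 1 fell in treated sh-PRDM16 against treated sh-scr cells, against 7 on median-centred and 7 on quantile-normalized arrays. In untreated sh-PRDM16 against untreated sh-scr cells 10 fell, and 10 and 11 on those scales. Tnfrsf9 is also used by leukocytes, and 10 leukocyte marker genes summed to between 844.9 and 887.2 in treated sh-PRDM16 cells, 1036.2 and 1100.3 in untreated sh-PRDM16 cells, 2979.9 and 3009.8 in treated sh-scr cells and 4655 and 5058.8 in untreated sh-scr cells. That sum was lower with rosiglitazone in sh-scr cells, where Tnfrsf9 was higher, and lower in sh-PRDM16 cells. Of the 8 tested leukocyte probe sets, 4 fell in treated sh-PRDM16 against treated sh-scr cells, or 5 on median-centred and on quantile-normalized arrays. With the drug in sh-scr cells 5 fell, or 2 on both of those scales, and Cd4 and Itgam were at the floor in all 4 groups. P2rx5 is also known from muscle, and 8 skeletal muscle and progenitor genes, with Myf5 and Myog at the floor in all 4 groups, summed to between 2714.6 and 2815.6 in treated sh-PRDM16 cells, 3333.7 and 3616.9 in untreated sh-PRDM16 cells, 804.8 and 1030.1 in treated sh-scr cells and 2083 and 2190.3 in untreated sh-scr cells. The muscle sum was lower with the drug, where P2rx5 was higher, and its tested members did not all follow it between the populations. Of 3 tested muscle probe sets, that of Acta1 rose in sh-PRDM16 against sh-scr cells, by 1.77 with the drug and 0.78 without. Both Myh1 probe sets fell, as P2rx5 did, with changes of -0.69 and -0.64 with the drug and -1.15 and -0.92 without. The part of these cell markers in the lineage marker changes was not tested.

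The test of whether the drug response differed between the populations called 0 of the 8 lineage marker probe sets. Over all probe sets 0.157% were called (0.124% as rises and 0.0327% as falls). On the deposited scale 1 of the 8 had an unadjusted p under 0.05. That was Tnfrsf9 1460469_at, whose response in sh-PRDM16 minus that in sh-scr cells was -1.50 ± 0.27 (SE, limma, interval -2.12 to -0.88, adjusted p = 0.0795). The value passed with 1 probe set per gene (adjusted p = 0.0437) and with a pseudocount of 64 (-0.68, adjusted p = 0.0343), and did not pass on median-centred (-1.81, 0.114) or quantile-normalized arrays (-1.68, 0.124). So the rise of Tnfrsf9 in sh-scr cells passed and its change in sh-PRDM16 cells did not, while the difference of the responses was not resolved at the threshold on the deposited scale. On median-centred arrays the unadjusted p was also under 0.05 for P2rx5 (limma, 0.0124) and Cited1 (0.0320). On quantile-normalized arrays it was so for P2rx5 (0.00912) but not for Cited1 (0.0967). None of these passed after adjustment.

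Other lineage genes were read from lists of the same kinds. Of the other beige or subcutaneous-enriched markers, 10 genes had 16 tested probe sets. With rosiglitazone 6 rose and 0 fell in sh-PRDM16 cells, and 6 rose and 4 fell in sh-scr cells, against 6 rises and 2 falls there on median-centred arrays. The rises included Car4, a carbonic anhydrase (5.28 in sh-PRDM16 and 5.22 in sh-scr cells for 1448949_at), the hormone Fgf21 (3.34 and 3.02) and the fatty acid transporter Slc27a1 (2.43 and 1.71). Between the populations 0 rose and 1 fell with the drug, and 0 rose and 3 fell without it, with Slc27a1 lower by both comparisons (-0.77 with the drug and -1.48 without).

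Of the other classical brown lineage markers, 11 genes had 18 tested probe sets. With rosiglitazone 3 rose and 1 fell in sh-PRDM16 cells, and 3 rose and 5 fell in sh-scr cells, against 3 rises and 1 fall there on median-centred arrays. The fall in sh-PRDM16 cells was in Hspb7 (-0.75), and the falls in sh-scr cells included Fbxo31 (-0.90) and Meox2 (-0.82). Kcnk3 rose by 1.09 in sh-PRDM16 cells. Pdk4, a kinase that restrains pyruvate entry into mitochondria, rose by 3.48 in sh-PRDM16 and 3.51 in sh-scr cells. Between the populations 1 rose and 3 fell with the drug, and 0 rose and 4 fell without it. On median-centred arrays 1 rose and 4 fell with it, and 0 rose and 2 fell without. Lower in sh-PRDM16 cells were Pdk4 (-1.56 with the drug and -1.53 without), Kcnk3 (-0.86 and -1.27) and Hspb7 (-0.65 and -0.67). Fbxo31 was lower without the drug (-0.52), and the rise with the drug was in Zfp423 (0.70). Zfp423 was counted in this list, but it is a zinc finger factor of fat progenitors that holds white identity in mature cells. Its changes are therefore not read as those of a brown marker, though the counts and median changes of this list include Zfp423. The roles of the other genes of this list were not weighed in the same way. Zfp423 gave 289.8 and 311.9 in treated and 213 and 182.2 in untreated sh-PRDM16 cells. It gave 175.4 and 182.6 in treated against 240.7 and 285.9 in untreated sh-scr cells. It rose by 0.57 in sh-PRDM16 cells (limma, adjusted p = 0.0413). In sh-scr cells it fell by 0.51 on the deposited scale (adjusted p = 0.0313) and by 0.22 on median-centred arrays, which did not pass (0.129), and the difference of 1.09 between the responses did not pass either (0.0900).

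Mpzl2, the brown marker once called Eva1, stayed near the floor. Its probe set 1448265_x_at gave 25 and 21.2 in treated sh-PRDM16 cells, against 11.2 and 15 in untreated sh-PRDM16 cells. It gave 37.2 and 36.8 in treated sh-scr cells, against 10.2 and 16.3 in untreated sh-scr cells. The 4 treated arrays were dim and the 4 untreated arrays at the floor. A second probe set, 1416236_a_at, gave 17.1 and 24.8 in treated and 0.4 and 0.6 in untreated sh-PRDM16 cells, and 33.4 and 28.6 in treated against 11.4 and 2.9 in untreated sh-scr cells, and was not tested because of its low mean. The log2 change of 1448265_x_at was 0.43 in sh-PRDM16 cells, which did not pass (limma, adjusted p = 0.119), and 0.87 in sh-scr cells, which did (adjusted p = 0.00790). This probe set passed the filter through its treated arrays, since its untreated group means lay below the limit of 19.72. The remaining probe set, 1416237_at, gave 17.6 and 3.4 in treated and 15.5 and 2.9 in untreated sh-PRDM16 cells, and 17.7 and 29.2 in treated against 19.7 and 7.6 in untreated sh-scr cells. Its treated and untreated arrays overlapped in both populations, and it was not tested either.

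Of the white lineage markers, 8 genes had 11 tested probe sets, of which 0 rose and 2 fell with rosiglitazone in sh-PRDM16 cells and 1 rose and 2 fell in sh-scr cells. The falls were in the hormones Lep (-2.26 in sh-PRDM16 and -2.30 in sh-scr cells) and Retn (-1.13 and -1.36). Between the populations 1 rose and 3 fell with the drug, and 0 rose and 3 fell without it. Lep (-2.01 with the drug and -2.05 without), Retn (-1.72 and -1.95) and Slc7a10 (-0.998 and -0.979) were lower in sh-PRDM16 cells. Psat1 was higher with the drug (0.547). Lep was at the floor in treated sh-PRDM16 cells. Median changes over the tested probe sets of the beige, brown and white lists were 0.05, -0.26 and 0.07 in sh-PRDM16 cells, against 0.00 over all, and -0.19, -0.37 and -0.30 in sh-scr cells, against -0.30 over all.

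**Figure D4:**
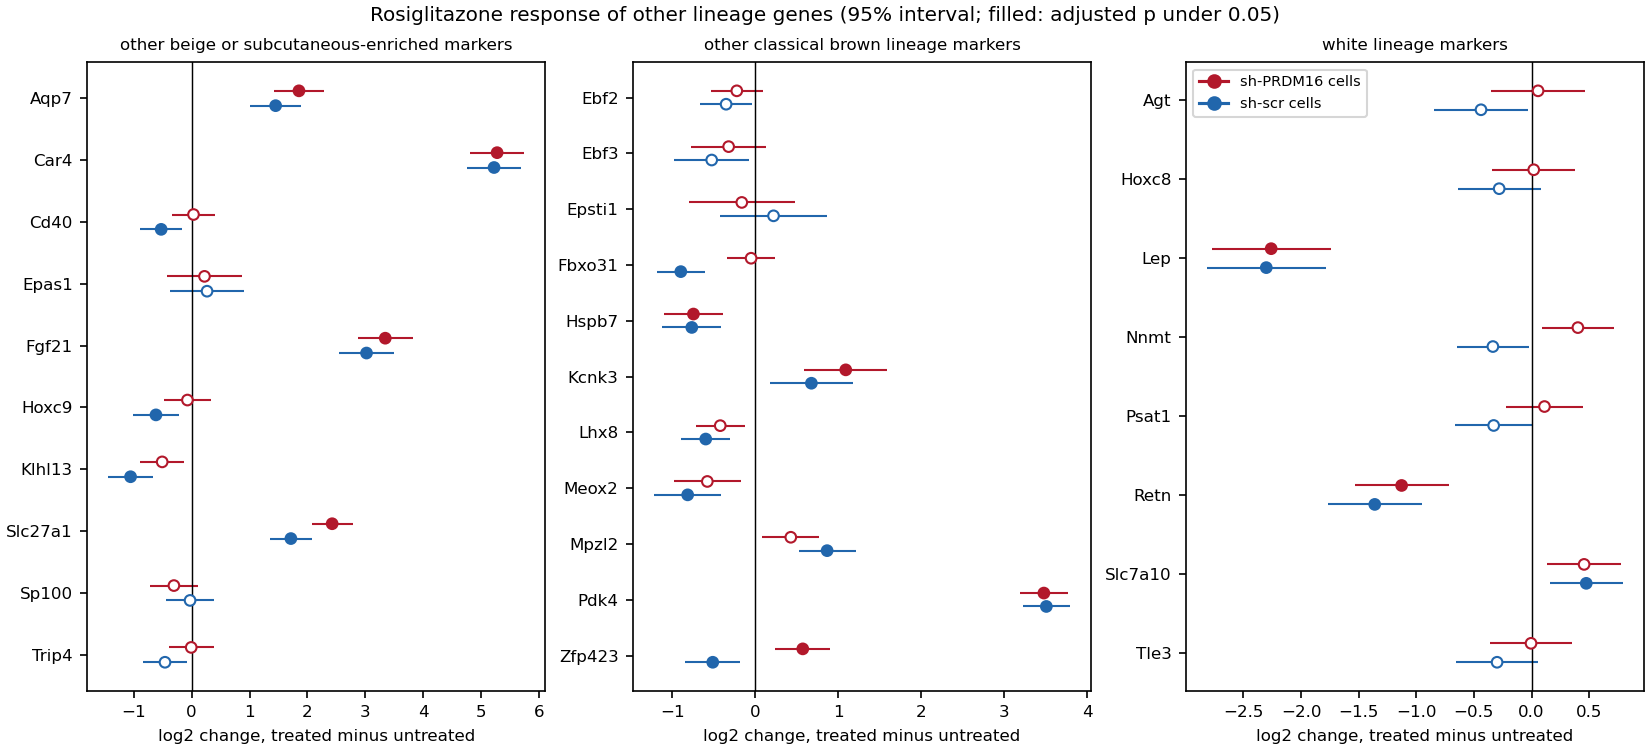
Log2 change with rosiglitazone (treated minus untreated) of other beige, classical brown and white lineage genes in sh-PRDM16 cells (red) and sh-scr cells (blue), for the probe set of each gene with the highest mean, with 95% intervals from limma and filled points where the adjusted p was under 0.05. Car4, Fgf21 and Pdk4 lie far to the right in both populations and Lep to the left, while Zfp423 lies on opposite sides of 0.

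Relatives of the lineage markers were read by family. Of 7 other T-box genes, 3 probe sets were tested, and Tbx5 rose by 0.79 with the drug in sh-PRDM16 cells. Without the drug Tbx5 was lower in sh-PRDM16 than in sh-scr cells (-0.68, limma, adjusted p = 0.0214). Of the P2rx channels other than P2rx5, 4 probe sets were tested and none rose. P2rx7 fell by 0.92 in sh-scr cells on the deposited scale and was at -0.62 on median-centred arrays, which did not pass (limma, adjusted p = 0.133). The list of other TNF receptor genes and Tnfsf9, the ligand of Tnfrsf9, had 14 tested probe sets, of which 0 passed with the drug in sh-PRDM16 cells and 2 fell in sh-scr cells, against 2 rises and 1 fall there on median-centred arrays. Between the treated populations 2 rose, Tnfsf9 by 1.16 and Tnfrsf10b by 0.62, while Tnfrsf9 itself was lower in sh-PRDM16 cells. The list gave 1 rise and 2 falls there on median-centred and 1 rise and 1 fall on quantile-normalized arrays. The Tnfsf9 call did not hold on median-centred arrays (1.03, adjusted p = 0.0734). Cited2, a relative of Cited1, fell with the drug by 0.64 in sh-PRDM16 and by 0.81 in sh-scr cells, and Cited4 fell by 0.76 in sh-scr cells on the deposited scale, but not on median-centred arrays (-0.46, adjusted p = 0.299). None of the 5 probe sets of the Zic relatives passed the filter.

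For each called lineage marker the 3 genes with the most similar pattern were taken by the smallest root mean square difference of the 4 centred group means of log2(intensity + 16). They are a description over 4 groups. For Cited1 they were Sprr1a (0.141), Irs2 (0.179) and Ppargc1b (0.197). For P2rx5 they were Vegfb (0.0408), Hsd17b7 (0.0484) and Tmed5 (0.0551), and for Eva1a Plk1 (0.0303), Krt20 (0.0330) and Has1 (0.0475). For the Tnfrsf9 probe set 1460469_at they were Car9 (0.0396), Rrh (0.129) and Sema6b (0.135), and for the Tbx15 probe set 1418755_at Mis12 (0.0104), Ccnd1 (0.0106) and Polk (0.0119). Some of these matches rest on means of low arrays that differed within a group. In untreated sh-scr cells Car9 gave 2.7 and 37 and Krt20 gave 4.6 and 26.1. Sema6b gave 35.9 and 8.2 in untreated sh-PRDM16 cells.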

How the data were processed

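Total RNA from 8 samples of mouse inguinal adipocytes was hybridized to Affymetrix mouse 430A_2 arrays, per the labels' protocols and the series' design text. The authors deposited 1 table of linear array intensity values for 22690 probe sets, from 0.1 to 22736.2, and how probe signals were summarized, or scaled from array to array, is not given in the sources used here. Probe sets with exactly 1 gene in the platform annotation (20380) were used. Annotations with several genes (691), unlisted probe sets (1555) and control probe sets (64) were left out.

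Values were taken as log2(intensity + 16) of the deposited intensities. Array medians spanned log2 0.378, so the deposited scale was kept (limit 0.5). limma 3.58.1 (R 4.3.3, lmFit and eBayes) was fitted to the 8 arrays together with 1 mean for each group (4 residual and 4.692 prior degrees of freedom), over the 15285 probe sets above the lowest 25% by mean. All p-values are two-sided, adjusted by Benjamini-Hochberg over every probe set tested in that contrast, and a call means an adjusted p under 0.05. Each probe set of a lineage marker was tested on its own. The fit was tested on simulated data with known changes.

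All lineage markers are named with every array's value. From other lists, at most the 4 called probe sets with the largest change are named, beside genes that a sentence needs for comparison, which were chosen after their values were seen. The members and lists were chosen with earlier results of these data known. Promoter windows came from a RefSeq table and were matched by symbol (7 of 10 genes). Alternatives covered the scale between arrays, the filter, the pseudocount, the variance prior, the replicate number as a block, the arrays fitted, 1 probe set per gene and leaving out each array.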

Additional observations from a re-analysis of the deposited data

How the results depend on the processing

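The precision is limited by 2 arrays per group and by low signal, since Zic1, Tnfrsf9 and untreated Cited1 lie at or near the floor. No named lineage marker call changed direction under any alternative. Calls among the 8 lineage marker probe sets that moved by over 1.5 times, and the ranges with an array left out, were as follows. For rosiglitazone in sh-PRDM16 cells (2) the count was 0 with the lowest 50% of probe sets left out, which kept 1 lineage marker probe set (Tbx15 1418755_at) in the test, 1 with a pseudocount of 64, 1 with a trended prior, and 1 to 2 with an array left out. For rosiglitazone in sh-scr cells (5) it was 3 on median-centred and 3 on quantile-normalized arrays, 1 with the lowest 50% left out, and 2 to 5 with an array left out. For sh-PRDM16 against sh-scr with rosiglitazone (3) it was 1 with the lowest 50% left out and 2 to 3 with an array left out. Without rosiglitazone (2) it was 0 with the lowest 50% left out, 1 with no filter, 1 with a pseudocount of 64, 1 with a trended prior, 1 with the replicate block, and 1 to 2 with an array left out. For the difference of the responses (0) it was 1 with a pseudocount of 64, 1 with 1 probe set per gene, and 0 whichever array was left out. Smaller moves were, for rosiglitazone in sh-scr cells, 4 with no filter (4 rises, Tnfrsf9 1428034_a_at among them, and 0 falls), with a pseudocount of 64 and with the replicate block. With rosiglitazone the count between the populations was 2 with no filter, with the replicate block and with only the 4 arrays compared, and 4 with a pseudocount of 64. Counts that did not move can hold other probe sets: without rosiglitazone, only the 4 arrays compared gave 2 rises and 0 falls. Except under the stricter filter, the cause was not tested.

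Replicate numbers did not pair the arrays: deviations of same-numbered arrays correlated between -0.0120 and 0.0397. With the replicate block the P2rx5 calls between the populations had adjusted p of 0.0514 with the drug and 0.0577 without, and Eva1a with rosiglitazone in sh-scr cells 0.0507.

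Over all probe sets, calls for rosiglitazone in sh-PRDM16 cells numbered 1493 (1147 rises, 346 falls), 2982 on median-centred arrays (1829, 1153), up to 3315 on quantile-normalized arrays (1688, 1627) and down to 640 with an array left out. In sh-scr cells they numbered 4491 (612 rises, 3879 falls), 3167 (1851, 1316) on median-centred and 3441 (1727, 1714) on quantile-normalized arrays, and down to 907 with an array left out. Between the populations with the drug they numbered 1582 (1060, 522), 2909 (1407, 1502) on median-centred and 2937 (1429, 1508) on quantile-normalized arrays, and from 444 with an array left out to 3452 with a trended prior. Without the drug they numbered 1863 (191, 1672), 2450 (1003, 1447) on median-centred and 2646 (1188, 1458) on quantile-normalized arrays, and from 628 to 3086 in the same 2 settings. The difference of the responses gave 24 calls, up to 1252 with a trended prior, and 0 on median-centred arrays, on quantile-normalized arrays, with no filter and with a pseudocount of 1, where 1833, 1898, 3552 and 3163 had an unadjusted p under 0.05.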
